A study of Mus musculus with 28 samples.

Results

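Genes of eicosanoid synthesis and breakdown, 10 in all, were followed through 28 arrays of mouse peritoneal macrophages: the lipoxygenases Alox15 and Alox5, the leukotriene genes Alox5ap, Lta4h and Ltc4s, the cyclooxygenases Ptgs1 and Ptgs2, the prostaglandin and prostacyclin synthases Ptges and Ptgis, and the prostaglandin dehydrogenase Hpgd. They were chosen by name, from the 1-symbol probe sets of the platform table, with earlier results of these data known. Of the 10, 9 have such a probe set, 1 each (9 of the 13512 genes tested), and Ptgs1 was not analysed here. All 9 lay above the background floor of 6.32 (log2 signal) on every array, so none was lost to the filter on dim probe sets.

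The study's title asks how ATF7, a CREB/ATF family transcription factor that answers to stress, bears on the lasting change that innate immune stimuli leave in macrophages. There were 7 groups of 4 arrays, which the labels call biologically independent, all of C57BL/6 background. WT mice were wild type and KO mice lacked ATF7, and neither group was injected (no age is given for them). The other 5 groups were wild-type mice injected intravenously at 7 to 8 weeks of age: PBS as the vehicle, LPS (lipopolysaccharide of E. coli O111:B4, sensed by TLR4), PGN (bacterial peptidoglycan), IMQ (imiquimod, a small-molecule TLR7 agonist) or BG (β-glucan, the fungal cell wall glucan sensed by dectin-1). Their macrophages were taken 3 to 4 weeks later, at 10 to 12 weeks, and are labelled 3 weeks. Cells were washed from the peritoneal cavity without an eliciting agent, kept overnight in serum-free medium and rinsed of non-adherent cells, so every group was measured after a night in culture. No fresh stimulus is named in the labels, and the knockout is not stated to be limited to macrophages.

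Eicosanoids are short-lived lipid signals made from arachidonic acid that phospholipases free from membranes. 5-lipoxygenase, with its partner FLAP, starts the leukotriene branch, 12/15-lipoxygenase makes hydroxylated fatty acids and feeds the lipoxin and resolvin pathways, and the cyclooxygenases open the prostaglandin branch. Resident peritoneal macrophages of the mouse are a classical source of leukotriene C4, prostacyclin and prostaglandin E2, and Alox15 is among their best known marker genes.

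The arrays were even: the median signal was 107.1 to 114.6 and arrays of 1 group correlated at 0.985 to 0.996. The Atf7 probe set 10433032 read 9.97 ± 0.11 in WT and 7.08 ± 0.10 in KO (log2 signal, mean ± SD, n = 4, as for all such values here), and the 2 groups did not overlap. A second and brighter Atf7 probe set, 10433034, read 10.73 ± 0.08 in WT and 10.28 ± 0.04 in KO, also without overlap. Which of them lies in the deleted part was not examined. A probe set without a gene name, picked after its values were seen, read 1790 to 2080 (linear signal) on the 8 PGN and IMQ arrays and 2510 to 3103 on the other 20. No array dates were used, so whether those 8 arrays were handled apart was not tested.

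Promoter sequence was at hand for 6 of the 9 measured genes (RefSeq, GRCm38.p6). Of these, 3 are shown because their genes changed in the knockout of a factor whose family binds the cyclic AMP response element (CRE). Each is the 250 bases before the start site, 5′ to 3′ on the gene's strand, with the GC box GGGCGG in capitals: Ptgs2 at chr1:150099781-150100030 (plus strand), Ptges at chr2:30903298-30903547 (minus) and Alox5 at chr6:116461179-116461428 (minus).
Ptgs2: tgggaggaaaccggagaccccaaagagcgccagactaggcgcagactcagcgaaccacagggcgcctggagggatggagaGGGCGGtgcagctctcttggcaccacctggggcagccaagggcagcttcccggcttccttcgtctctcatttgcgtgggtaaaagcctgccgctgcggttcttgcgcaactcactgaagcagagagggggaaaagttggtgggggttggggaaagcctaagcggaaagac
Ptges: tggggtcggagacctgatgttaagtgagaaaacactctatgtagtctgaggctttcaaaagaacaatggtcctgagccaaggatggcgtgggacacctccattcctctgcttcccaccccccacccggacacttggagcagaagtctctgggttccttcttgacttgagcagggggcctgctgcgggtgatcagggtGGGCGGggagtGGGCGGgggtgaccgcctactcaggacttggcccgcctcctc
Alox5: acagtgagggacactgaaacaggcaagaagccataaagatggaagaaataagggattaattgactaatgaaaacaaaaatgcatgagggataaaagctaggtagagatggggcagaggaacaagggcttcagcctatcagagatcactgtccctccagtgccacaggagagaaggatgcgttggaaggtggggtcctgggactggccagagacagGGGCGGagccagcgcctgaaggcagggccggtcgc
The Ptgs2 window holds 1 GC box (170 to 165 bases before the start), the Ptges window 2 (53 to 48 and 42 to 37) and the Alox5 window 1 (35 to 30). That of Hpgd holds 1 on the opposite strand, and those of Ltc4s and Lta4h hold 0. The CRE half-site TGACG, the full CRE TGACGTCA and the AP-1 site TGANTCA, searched on both strands, matched none of the 6 windows (the full CRE contains the half-site). Of 32851 promoters of this length, 17.8% hold the half-site, 1.5% the full CRE, 6.7% the AP-1 site and 32.7% the GC box. Sequence after the annotated start or further upstream was not searched, and a window without a match says nothing about binding.

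In macrophages lacking ATF7, both lipoxygenases and prostacyclin synthase fell, while the inducible cyclooxygenase and the prostaglandin E synthase rose. Ptgis was 2.69-fold lower, Alox5 1.99-fold and Alox15 1.95-fold lower, and Ptgs2 1.72-fold and Ptges 1.58-fold higher. In limma 5 of the 9 genes changed (2 up, 3 down) at an adjusted p under 0.05, where 28.3% of all 13512 genes did (17.7% up, 10.7% down). The other 4 (Alox5ap, Lta4h, Ltc4s and Hpgd) did not pass. The median change of the 9 was 0.06 (log2), against 0.01 over all genes. As RNA of whole cultures was measured, fewer cells of a type and less RNA per cell cannot be told apart in any of these values.

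After BG the same 3 genes were lower and Ptgs2 was higher, and 2 further genes were lower. Against PBS, 6 of 9 changed (1 up, 5 down), where 41.6% of all genes did (20.2% up, 21.4% down), and the median change was -0.37, against 0.02 over all genes. Ptgis was 1.51-fold, Alox15 1.39-fold, Alox5 1.38-fold, Lta4h 1.29-fold and Hpgd 1.52-fold lower, and Ptgs2 1.42-fold higher. BG and KO were measured against different controls with no array in common. In both, 4 genes were called, and all 4 in the same direction, where 1444 of all genes (10.7%) were called in both in the same direction and 1917 in both in any. The mean of 21 large peritoneal macrophage markers was also used as a covariate, an alternative added after the data were seen. That mean did not overlap between BG (9.60 to 9.74) and PBS (10.03 to 10.39), so the fit cannot separate it from the group. With the covariate, 0 of the 9 were called after BG, and 16.7% of all genes were. Alox15 and Ptgis then turned to 0.17 and 0.25, while Alox5, Hpgd and Lta4h were -0.43, -0.58 and -0.28, against -0.46, -0.61 and -0.37 without the covariate.

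**Figure D1:**
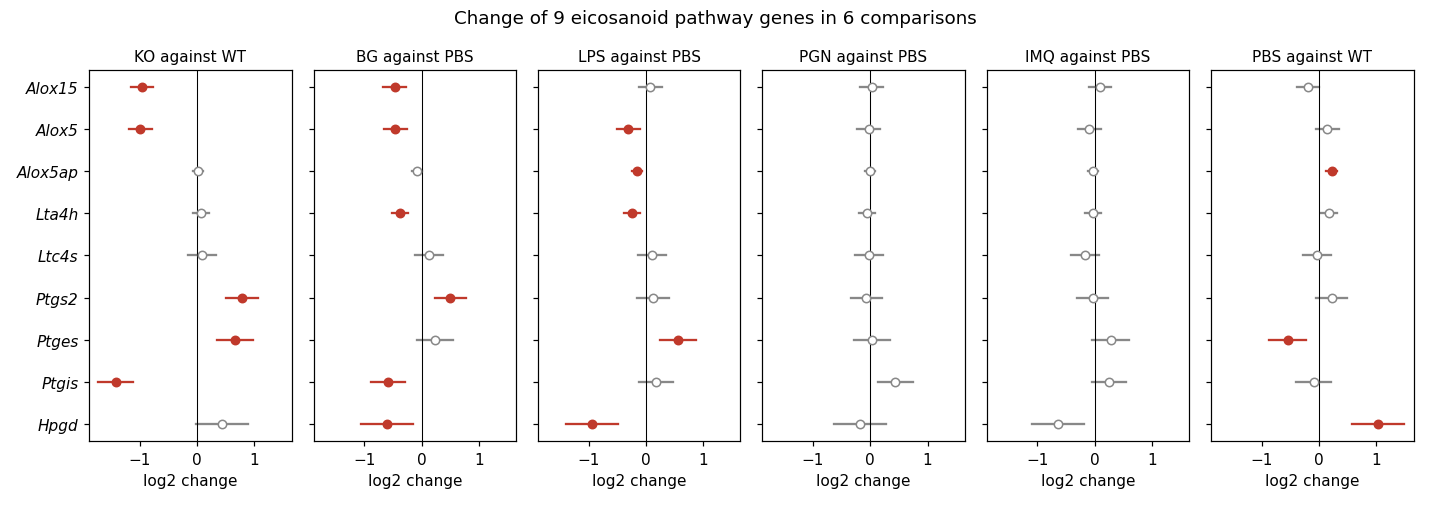
Change of the 9 genes in 6 comparisons, as the log2 difference of group means with its 95% confidence interval (limma, 4 arrays against 4). The interval uses a variance per gene pooled over all 28 arrays and moderated across genes. Filled red points were called at an adjusted p under 0.05: 5 genes in KO against WT, 6 after BG, 5 after LPS, 0 after PGN, 0 after IMQ and 3 in PBS against WT.

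Alox15 encodes the 12/15-lipoxygenase, which oxygenates arachidonic and linoleic acid. Its log2 signal was 12.85, 12.59, 12.45 and 12.41 on the WT arrays and 11.62, 11.37, 11.85 and 11.61 on the KO arrays. It was 12.60, 12.40, 12.26 and 12.28 in PBS and 11.96, 12.00, 11.76 and 11.93 in BG. Every KO array lay below every WT array, and every BG array below every PBS array. It fell by 0.96 (SE 0.10, adjusted p = 4.57e-08) in KO and by 0.47 (SE 0.10, adjusted p = 0.000326) after BG. The knockout effect was the larger by 0.49 (adjusted p = 0.00811 for the difference, for which 29.1% of all genes were called). LPS, PGN and IMQ arrays ranged from 12.27 to 12.64 together, within the span of PBS and WT. In the order of group means, WT, IMQ, LPS, PGN and PBS came first and no neighbours among them were called, while BG lay below PBS and KO below BG (adjusted p = 0.0173, with 1 KO array inside the BG range). KO mice were not injected and their age is not given. Genotype, injection and age cannot be told apart in any pair of KO with an injected group.

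Alox5 encodes 5-lipoxygenase, the first enzyme of leukotriene synthesis. The WT arrays read 10.08, 9.89, 10.11 and 9.84 and the KO arrays 8.82, 8.97, 9.07 and 9.09. PBS read 10.22, 9.86, 10.32 and 10.11, BG 9.82, 9.51, 9.72 and 9.63, and LPS 9.67, 9.74, 9.77 and 10.09. KO and BG were each apart from their controls, and LPS overlapped PBS through 1 array. Alox5 fell by 0.99 (SE 0.10, adjusted p = 3.36e-08) in KO, by 0.46 (adjusted p = 0.000483) after BG and by 0.31 (adjusted p = 0.0434) after LPS. The LPS call did not hold without LPS replicate 1, 2 or 3 or PBS replicate 1, 3 or 4 (adjusted p up to 0.147). KO and BG effects differed by 0.53 (adjusted p = 0.00507). KO also lay below BG itself, by 0.68 (adjusted p = 4.27e-06), with the limit given above for such pairs. That was the 1 neighbouring pair called in the order PBS, PGN, IMQ, WT, LPS, BG, KO.

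Alox5ap encodes FLAP, the membrane protein that hands arachidonic acid to 5-lipoxygenase. Unlike Alox5, it did not pass in KO, where it read 11.95, 11.98, 11.87 and 11.84 against 11.86, 11.85, 11.96 and 11.91 in WT. The change was 0.01 (95% interval -0.08 to 0.10, adjusted p = 0.878). It was 12.04, 12.05, 12.21 and 12.15 in PBS, and 11.97, 11.86, 11.96 and 12.05 in LPS. It was 0.22 higher in PBS than in WT (adjusted p = 0.000936), with no overlap, and 0.15 lower in LPS than in PBS (adjusted p = 0.036), with overlap. The LPS call was lost without PBS replicate 3 or 4 or LPS replicate 1 or 2 (adjusted p up to 0.161), and the PBS call held whichever array was left out. After BG it was 0.08 lower (adjusted p = 0.147).

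Lta4h encodes leukotriene A4 hydrolase, which makes leukotriene B4. PBS arrays read 9.11, 9.07, 9.19 and 9.18, LPS arrays 8.90, 8.77, 8.99 and 8.91, and BG arrays 8.96, 8.74, 8.73 and 8.64. All LPS and BG arrays lay below all PBS arrays. It fell by 0.37 (SE 0.07, adjusted p = 0.000101) after BG and by 0.25 (adjusted p = 0.0287) after LPS, the latter lost without PBS replicate 3 or 4 or LPS replicate 1 or 2 (adjusted p up to 0.132). In KO it read 9.17, 9.07, 9.06 and 8.83 against 8.94, 8.83, 9.12 and 8.98 in WT, which overlap, and the change was 0.06 (95% interval -0.08 to 0.20, adjusted p = 0.534). The knockout and BG effects on Lta4h differed by 0.43 (adjusted p = 0.00138), and the knockout and LPS effects by 0.31 (adjusted p = 0.0177, for which 29.3% of all genes were called).

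Ltc4s encodes leukotriene C4 synthase, which joins glutathione to leukotriene A4. Its 28 values lay between 8.61 and 9.34, both of them LPS arrays, and it was called in 0 of the 21 pairs of groups. Its F test over the 7 groups gave an adjusted p of 0.225 (74.3% of all genes were called by that test). Each of the other 8 genes was called by it.

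**Figure D2:**
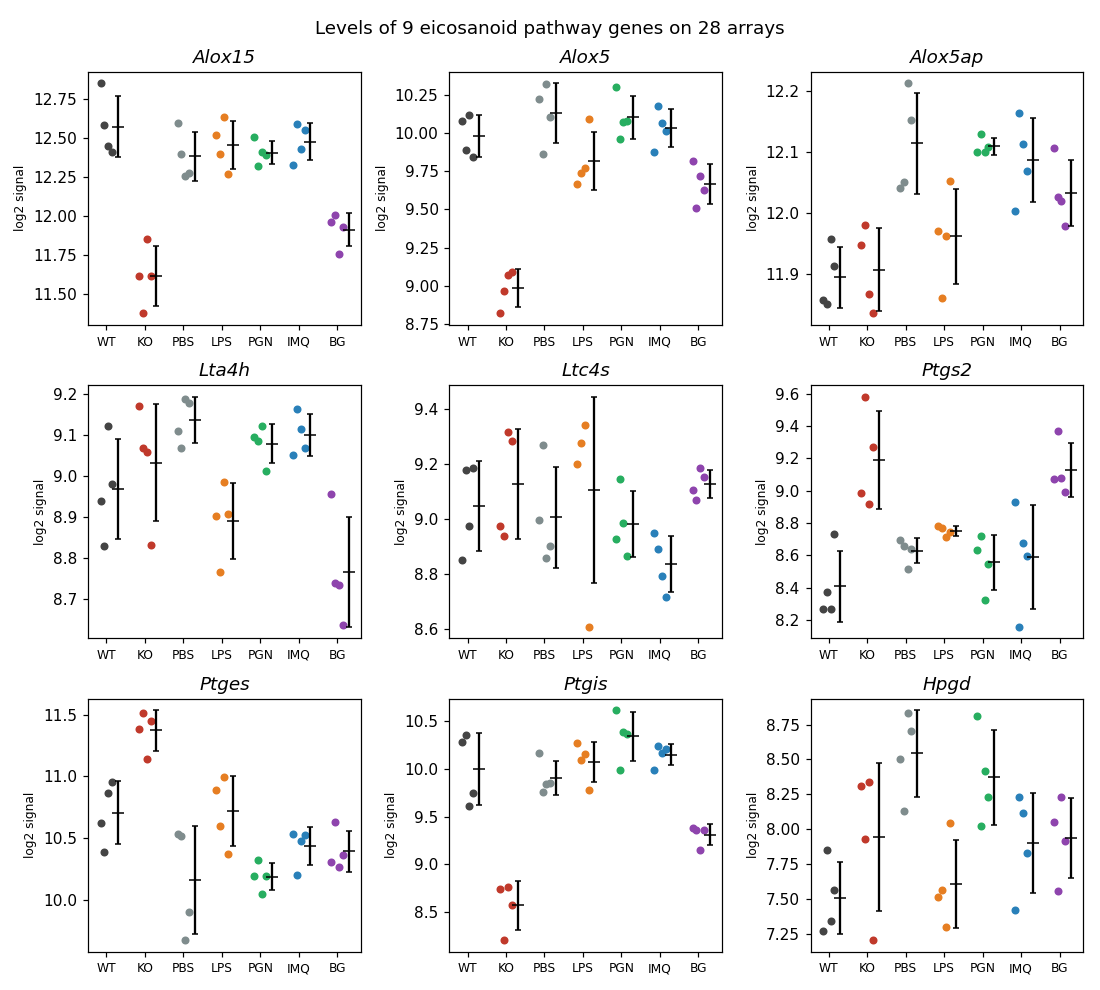
Log2 signal of the 9 genes on each of the 28 arrays. Each point is 1 array, and the black bar beside each group is its mean ± SD (n = 4). Vertical axes differ between panels and do not start at 0. KO points lie below WT points for Alox15, Alox5 and Ptgis, and above them for Ptgs2 and Ptges.

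Ptgs2 encodes cyclooxygenase-2, the inducible enzyme that makes prostaglandin H2. WT arrays read 8.27, 8.37, 8.27 and 8.73 and KO arrays 8.99, 9.58, 8.92 and 9.27. PBS read 8.70, 8.66, 8.52 and 8.64 and BG 9.08, 9.37, 9.08 and 8.99. Both pairs are separate. Ptgs2 rose by 0.78 (SE 0.13, adjusted p = 6.85e-05) in KO and by 0.50 (SE 0.13, adjusted p = 0.00377) after BG, effects that differed by 0.28 (95% interval -0.11 to 0.67, adjusted p = 0.269). After LPS it read 8.78, 8.77, 8.71 and 8.74, just above all PBS arrays (exact two-sided permutation p = 0.0286, the smallest that 4 against 4 arrays allow), but the limma change of 0.12 did not pass (adjusted p = 0.522). The knockout effect exceeded the LPS effect by 0.66 (adjusted p = 0.0114). KO and BG headed the order of means, and BG lay above the next group, LPS, with an adjusted p of 0.0279.

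Ptges encodes the microsomal prostaglandin E synthase, which acts after the cyclooxygenases. WT read 10.63, 10.39, 10.87 and 10.95 and KO 11.38, 11.51, 11.14 and 11.45, with no overlap. It rose by 0.66 (SE 0.16, adjusted p = 0.0018) in KO. The PBS arrays were scattered, at 10.54, 10.52, 9.68 and 9.91, and the LPS arrays read 10.89, 10.60, 11.00 and 10.38. Against PBS it was 0.56 higher after LPS (adjusted p = 0.03) and 0.23 higher after BG (adjusted p = 0.229), and PBS was 0.55 lower than WT (adjusted p = 0.00971), each pair overlapping. Without PBS replicate 3, the lowest array, neither the LPS call nor that of PBS against WT held (adjusted p = 0.11 and 0.0575), and the LPS call was also lost without PBS replicate 4 or LPS replicate 1, 2 or 3.

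Ptgis encodes prostacyclin synthase. It read 10.28, 10.36, 9.61 and 9.75 in WT and 8.75, 8.20, 8.76 and 8.57 in KO. It read 10.16, 9.75, 9.84 and 9.85 in PBS and 9.38, 9.36, 9.15 and 9.36 in BG. All KO arrays lay below all WT arrays, and all BG arrays below all PBS arrays. Ptgis fell by 1.43 (SE 0.15, adjusted p = 7.27e-08) in KO and by 0.59 (SE 0.15, adjusted p = 0.0021) after BG, and the effects differed by 0.84 (adjusted p = 0.0036). Its PGN arrays read 10.61, 9.99, 10.39 and 10.36, a mean 0.44 above PBS (adjusted p = 0.0931, overlapping). LPS and IMQ means were 0.17 and 0.25 above PBS (adjusted p = 0.412 and 0.347).

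Hpgd encodes 15-hydroxyprostaglandin dehydrogenase, which inactivates prostaglandins. Its 4 PBS arrays read 8.50, 8.13, 8.84 and 8.71, above the WT arrays at 7.27, 7.85, 7.34 and 7.56 and the LPS arrays at 7.52, 7.57, 7.30 and 8.04. It was 2.05-fold higher in PBS than in WT (1.04 on the log2 scale, SE 0.22, adjusted p = 0.00131) and 1.91-fold lower in LPS than in PBS (adjusted p = 0.0179). After BG it fell by 0.61 (adjusted p = 0.0298), with overlap and an exact two-sided permutation p of 0.0571. The BG call was lost without PBS replicate 3 or 4 or BG replicate 2 or 4 (adjusted p up to 0.113), and the LPS call without PBS replicate 3 or LPS replicate 2 (adjusted p up to 0.0739). KO arrays were uneven, at 8.31, 7.93, 8.34 and 7.20, and the change of 0.44 against WT did not pass (adjusted p = 0.147). Without KO replicate 4 it was 0.69 (adjusted p = 0.0141). The knockout effect exceeded the LPS effect by 1.37 (adjusted p = 0.00238) and the BG effect by 1.04 (adjusted p = 0.0139). With the mean of B cell markers as a covariate these differences were 0.56 (adjusted p = 0.292) and 0.47 (adjusted p = 0.3), and the change in KO was -0.46 (adjusted p = 0.44). The differences of effects also hold the gap between their controls, as PBS lay 1.04 above WT. Compared directly with KO, BG was -0.01 (limma adjusted p = 0.988) and LPS -0.34 (adjusted p = 0.273).

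After LPS, 5 of 9 genes changed against PBS (1 up, 4 down), where 9.88% of all genes did: Ptges was higher and Hpgd, Alox5, Lta4h and Alox5ap were lower. Lta4h and Hpgd had no overlap with PBS and the other 3 did. Ptgs2, which was not called, had no overlap either. The share of all genes without overlap is not given here. PBS itself differed from uninjected WT in 3 of the 9 genes (2 up, 1 down), where 32.7% of all genes did. LPS against PBS and PBS against WT share the PBS arrays, so their values are set side by side: -0.94 and 1.04 for Hpgd, 0.56 and -0.55 for Ptges, and -0.15 and 0.22 for Alox5ap. Against WT, LPS differed in 0 of 9 genes in limma (1 at an unadjusted p under 0.05, Ptgs2, with a change of 0.34 and an adjusted p of 0.11), where 9.17% of all genes were called. BG against WT was called for 6 of 9, where 38.1% of all genes were: Alox15, Alox5, Lta4h and Ptgis lower, and Ptgs2 and Alox5ap higher. Age at sampling is given for the injected mice and not for WT or KO. Injection and age cannot be told apart where an injected group is compared with WT. Where it is compared with KO, genotype is mixed with them as well. Leaving out 1 array at a time left 0 to 5 calls after LPS, with 0 when PBS replicate 3 or LPS replicate 2 was left out.

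PGN and IMQ changed 0 of the 9 genes against PBS in limma, where 3.91% and 5.69% of all genes were called. In each, 1 gene had an unadjusted p under 0.05: Ptgis after PGN (above), and Hpgd after IMQ, 0.64 lower with arrays at 7.42, 8.23, 8.11 and 7.83 (adjusted p = 0.0844). The width of the intervals differed between genes. For Alox5ap the 95% interval was -0.10 to 0.09 after PGN and -0.12 to 0.07 after IMQ, and for Hpgd after PGN it ran from -0.63 to 0.28.

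Knockout and LPS, which share no array, differed in their effects on 6 of the 9 genes (29.3% of all genes), and knockout and BG on 5 (29.1%). With the B cell marker mean as a covariate these counts were 4 (without Lta4h and Hpgd) and 4 (without Hpgd). With the macrophage marker mean they were 2 (Alox15 and Ptgis) and 5. The calls over all 13512 genes changed too, from 3958 and 3938 without a covariate. They were 1573 and 2827 with the B cell mean, and 466 and 4297 with the macrophage mean. Alox15 was 1.04, Alox5 0.68 and Ptgis 1.60 further down in the knockout than after LPS (adjusted p = 7.83e-06, 0.000839 and 7.06e-06). For Ptges, called higher in KO against WT and in LPS against PBS, the effects differed by 0.11 (95% interval -0.34 to 0.56, adjusted p = 0.721). Their controls differed too, with PBS against WT at -0.55, and the LPS call was lost without PBS replicate 3. Directly compared, LPS was 0.01 against WT (adjusted p = 0.979) and -0.65 against KO (adjusted p = 0.00187).

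**Figure D3:**
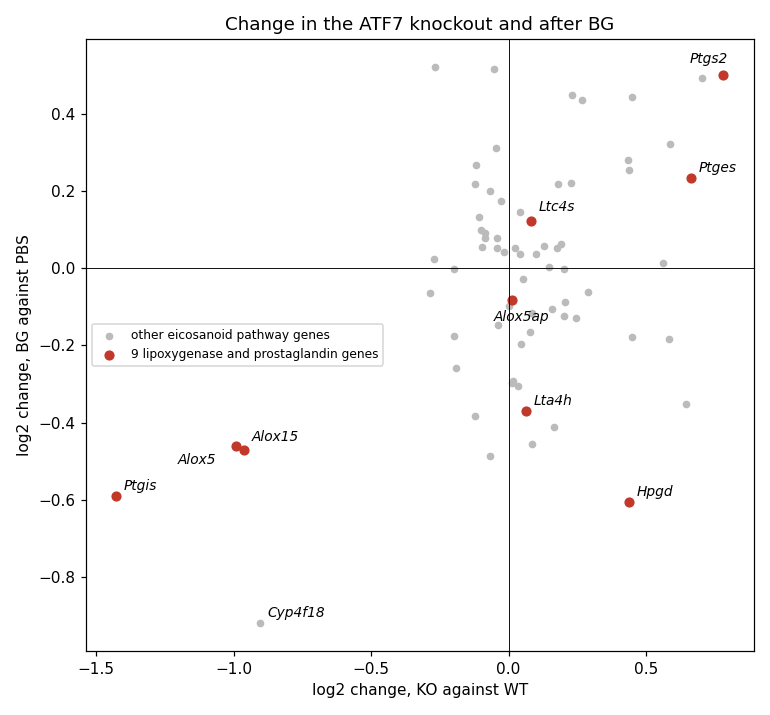
Log2 change in KO against WT (horizontal) and in BG against PBS (vertical) for the 9 genes (red) and 61 other eicosanoid pathway genes (grey). Alox15, Alox5 and Ptgis lie at the lower left with Cyp4f18, Ptgs2 lies at the upper right, and Lta4h, Hpgd and, near the origin, Alox5ap lie above 0 on the horizontal axis and below 0 on the vertical.

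Around these genes, 92 further genes of the pathway were listed, of which 77 have a probe set and 61 were tested. In KO 17 of the 61 were higher and 4 lower (34.4%), after BG 12 and 11 (37.7%), after LPS 1 and 5 (9.84%), after PGN 4 and 2, after IMQ 2 and 4, and in PBS against WT 13 and 4 (27.9%). Those shares stand beside 28.3%, 41.6%, 9.88%, 3.91%, 5.69% and 32.7% of all genes.

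Upstream of both branches, 4 of 18 genes of arachidonate release and acylation were higher and 1 was lower in KO (27.8%, against 28.3% of all genes). Pla2g4a, the cytosolic phospholipase A2 that frees arachidonic acid, rose by 0.59 (adjusted p = 0.000429), to 10.04 ± 0.27 from 9.45 ± 0.15. Plaat3, a phospholipase and acyltransferase, rose by 0.70 (adjusted p = 6.56e-05). After BG 2 were higher and 5 lower (38.9%, against 41.6% of all genes).

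Of 9 other prostanoid synthases, 6 were higher and 0 lower in KO by limma (66.7%, against 28.3% of all genes). Hpgds, the hematopoietic prostaglandin D synthase, rose by 0.65 (adjusted p = 0.00635) and Cbr2, a carbonyl reductase, by 0.58 (adjusted p = 0.000264). Hpgds was also 0.82 higher in PBS than in WT (adjusted p = 0.00129) and 0.70 lower in LPS than in PBS (adjusted p = 0.0211), the latter with overlap. Its group means were 6.79 in WT, 7.62 in PBS and 6.91 in LPS. Of 9 breakdown, transport and epoxide genes, 4 were higher and 0 lower in KO (44.4%, against 28.3% of all genes). Among these 4 was Ephx1, the microsomal epoxide hydrolase (0.56, adjusted p = 4.49e-05). Cyp1b1, a cytochrome P450, rose by 0.52 after BG (adjusted p = 0.0014), and Cyp2j6, an arachidonate epoxygenase family member, was 0.57 higher in PBS than in WT (adjusted p = 0.00125). In WT, Cyp2j6 read 6.64 ± 0.35, with its lowest array at 6.16, and Cbr2 6.47 ± 0.11, both close to the floor of 6.32.

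Among 9 other leukotriene enzymes, Cyp4f18, which hydroxylates leukotriene B4, fell in both KO (by 0.90, adjusted p = 2.24e-05) and BG (by 0.92, adjusted p = 1.01e-05). It went from 8.32 ± 0.38 in WT to 7.41 ± 0.17 in KO, and from 8.49 ± 0.26 in PBS to 7.57 ± 0.08 in BG, with no overlap in either. Dpep3, of the dipeptidase family that includes leukotriene D4 cleaving enzymes, rose by 0.52 after BG (adjusted p = 4.89e-06).

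Among receptors, 8 for prostanoids and 5 for leukotrienes and related lipids were tested. Ptger4, the EP4 receptor of prostaglandin E2, was higher than PBS after PGN (by 0.33, adjusted p = 0.00722), IMQ (by 0.30, adjusted p = 0.00987) and BG (by 0.31, adjusted p = 0.000834), all against the same PBS arrays. It was also 0.30 higher in PBS than in WT (adjusted p = 0.00248). Its mean was 9.08 in WT, 9.03 in KO and 9.38 in PBS. Cysltr1, the first cysteinyl leukotriene receptor, fell by 0.41 after BG (adjusted p = 0.000556), to 9.22 ± 0.08. Cmklr1, a receptor for chemerin and proposed for resolvin E1, was 0.20 higher in KO (adjusted p = 0.0128).

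Marker genes of cell types moved with some of these comparisons. Their counts, here and in the next paragraph, stand beside the shares of all genes called. Those were 28.3% in KO, 41.6% after BG, 9.88% after LPS and 32.7% in PBS against WT. Adgre1, which encodes the macrophage marker F4/80, Gata6 and Timd4, all defining genes of large peritoneal macrophages, were above the floor on all 28 arrays. The mean of 21 such markers was 10.15 ± 0.11 in WT and 9.73 ± 0.10 in KO, and 10.17 ± 0.16 in PBS and 9.67 ± 0.07 in BG. In KO 10 of 21 were lower and 2 higher (57.1%), and after BG 14 were lower and 2 higher (76.2%). Fn1 and Thbs1, the brightest of the list by mean, fell in KO by 0.29 and 1.10 (adjusted p = 0.00118 and 1.41e-08) and after BG they changed by -0.50 and -2.01 (adjusted p = 1.03e-06 and 7.68e-14). In the LPS, PGN and IMQ groups the mean was 10.22, 10.21 and 10.21. The fall of these markers stood beside that of Alox15, Alox5 and Ptgis in KO and BG. The mean did not overlap between KO (9.65 to 9.82) and WT (10.02 to 10.30), so a fit with it cannot separate it from the group. With the mean as a covariate, KO kept 4 calls (Alox15 -0.42, Alox5 -0.97, Ptgis -0.72 and Ptges 0.95), where 6.05% of all genes were called. Ptgs2 did not pass (0.50, adjusted p = 0.174).

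B cell markers (18 tested of 22 with a probe set) averaged 8.46 ± 0.28 in WT and 7.67 ± 0.23 in KO. In KO 15 were lower and 0 higher (83.3%). The mean was 8.43 ± 0.15 in PBS and 8.15 ± 0.05 in BG, with 6 lower and 1 higher (38.9%). Cd79b, part of the B cell receptor, fell in KO by 1.15 (adjusted p = 2.84e-06), and Cd72 was 0.16 lower (adjusted p = 0.744). Fcer2a, Cr2 and Cxcr5 lay under the floor on every array. The B cell marker mean did not overlap between KO (7.44 to 7.98) and WT (8.06 to 8.71), or between BG (8.09 to 8.21) and PBS (8.32 to 8.64). A fit with it cannot separate it from these groups. With this mean as a covariate 5 genes were called in KO and 6 after BG, where 9.36% and 35.1% of all genes were. In KO Ptgis was then -1.68, Ptgs2 0.91, Ptges 1.03 and Hpgd -0.46 (not called, and 0.44 without the covariate), and after BG Hpgd was -0.93 (adjusted p = 0.00131). Monocyte and dendritic cell markers (17 tested) went both ways, with 4 higher and 6 lower in KO, 4 and 3 after BG, and 1 and 1 after LPS. Mesothelial and fibroblast markers (13 tested of 16) averaged 6.87 ± 0.06 in WT, 6.75 ± 0.05 in PBS and 6.92 ± 0.11 in LPS. In PBS against WT 7 of them were lower and 1 higher, and after LPS 2 were higher, all with list means close to the floor of 6.32. Of 6 eosinophil markers with a probe set 2 were tested, with a mean of 7.53 ± 0.24 in WT and 6.89 ± 0.19 in KO. Of these Il5ra, the interleukin-5 receptor chain, fell in KO (by 1.18, adjusted p = 5.95e-05) and Siglecf was -0.09 (adjusted p = 0.354). The other eosinophil markers, Ccr3, Epx, Prg2 and Ear6, lay under the floor on all 28 arrays. Of 13 T and NK cell markers 5 were tested, and 1 was higher and 1 lower in KO, 0 and 1 after LPS, 0 and 0 after BG, and 1 and 3 in PBS against WT. Of 5 platelet markers tested 1 was higher in KO, 1 after BG, and 2 were higher and 1 lower in PBS against WT. Of 12 mast cell markers 3 were tested (Hdc, Gata2 and Tpsb2), of which 1 was lower in KO, 1 higher after LPS, and 1 higher and 1 lower after BG, and Cpa3, Mcpt4, Cma1 and Fcer1a lay under the floor on all 28 arrays. Of 13 neutrophil markers 6 were tested, of which 1 was higher and 2 lower in KO, 2 were lower after BG and 0 were called after LPS, and Ly6g, Ngp and Cxcr2 lay under the floor on all arrays. The part of these other cell types in the results was not tested.

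**Figure D4:**
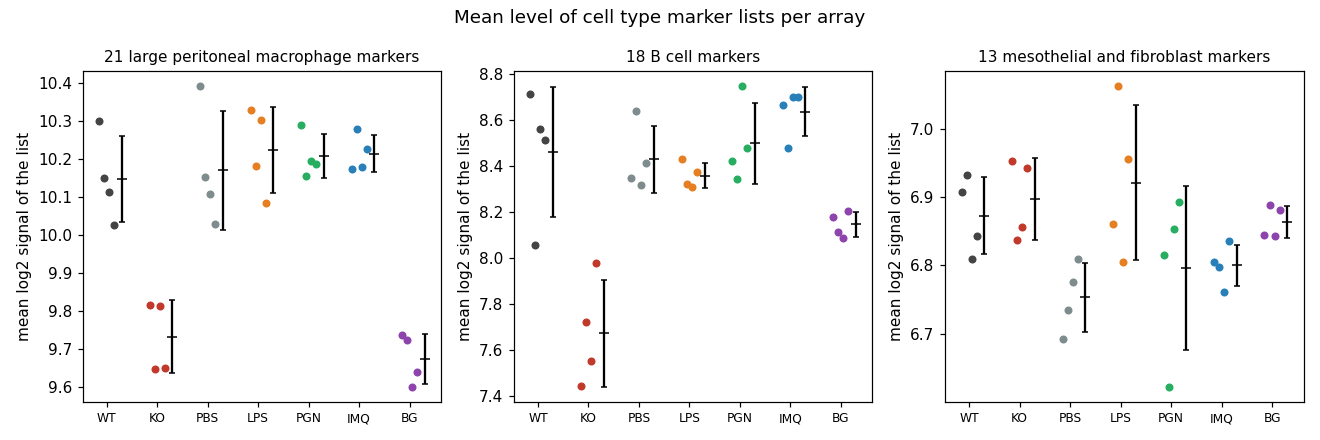
Mean log2 signal of 3 marker lists on each array (points), with the mean ± SD of each group (black bars, n = 4). The vertical axes do not start at 0. The large peritoneal macrophage mean of the 8 KO and BG arrays lies between 9.60 and 9.82 and that of the other 20 between 10.02 and 10.39.

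Over the 21 pairs of groups, each adjusted over all genes, the 9 genes gave 77 calls of 189 (40.7%), against 25.8% over all genes and pairs. The pairs share arrays, and the genes were chosen with earlier results of these data known. These shares are therefore a description and not a test. Alox15, Alox5, Alox5ap and Ptgis were called in 11 pairs each, Ptgs2 and Ptges in 10, Lta4h in 7 and Hpgd in 6. Of the 54 pairs of neighbours in the orders of group means, 7 were called, and all 7 set KO or BG apart from the group next to it. Besides those given above, BG lay under PBS and KO under BG for Ptgis (adjusted p = 0.0021 and 0.000254), and KO lay above LPS for Ptges (adjusted p = 0.00187). Pairs of KO with BG or LPS differ in genotype and injection, and the age of KO is not given. For Hpgd the order was PBS, PGN, KO, BG, IMQ, LPS, WT, and no neighbours were called.

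The genes whose levels followed each of the 9 most closely over the 28 arrays were ranked by Pearson's r, which is given as a description, since arrays of a group share their treatment. Alox15 ran with Gata6, the transcription factor of large peritoneal macrophages (r = 0.977, and 0.894 within groups), Serpinb2 (0.961) and Oscp1 (0.953). Ptgis ran with Itga6 (0.947), Plxdc2 (0.946) and Gata6 (0.936). Gata6, Serpinb2 and Itga6 are also in the macrophage marker list. Ptgs2 ran with Tnf, a cytokine gene (0.875), Pim1 (0.866) and Psmb8 (0.865), and Ptges with Cd82 (0.955), Abcc5 (0.911) and Marcksl1 (0.897). Alox5 ran with Dock4 (0.941), Arhgap15 (0.937) and Maml3 (0.932), and Alox5ap with Tpd52 (0.943), Tcf12 (0.914) and Usp45 (0.906). Lta4h ran with Mier1 (0.893), Tmem184c (0.892) and Sec63 (0.887), and Hpgd with Man1c1 (0.855), Nagk (0.853) and Lgmn (0.851). The closest genes to Ltc4s were Ccl22 (0.775), Slc2a6 (0.722) and Crkl (0.718).

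Among the 9 themselves, Alox15 and Ptgis had an r of 0.929 over the 28 arrays and 0.792 within groups. Alox5 had 0.838 with Ptgis and 0.795 with Alox15, but 0.048 and 0.077 within groups, where array-to-array differences of Alox5 did not follow those of the other 2. Alox15 and Ptgs2 ran opposite, with -0.825 over all arrays and -0.447 within groups.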

How the data were processed

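Messenger RNA was measured on 28 Affymetrix gene arrays, 7 groups of 4. The values are the authors' deposited linear signal intensities, 1 per probe set and array, made in Affymetrix Expression Console with RMA, per the submitters' processing notes (its version is not given in the sources used here). Of 35556 probe sets, 21789 have 1 gene symbol, 1621 several and 12146 none. Log2 was taken with no further scaling. Probe sets above the floor (95th percentile of 1212 odorant and vomeronasal receptor probe sets, 6.32) on at least 4 arrays were kept, and the probe set of highest mean stood for a gene (13512 genes). limma 3.58.1 (R 4.3.3) fitted 1 mean per group, its variances moderated with a trend. Within each comparison the p-values of all genes were adjusted (Benjamini-Hochberg, threshold 0.05). Precision is limited by 4 arrays a group. The limma p-values and intervals use the spread within groups, pooled over all 28 arrays and moderated across genes. They do not rest on the spread of the compared groups alone. Alternatives covered filters, scaling, weights, covariates, a replicate block and left-out arrays. Named pathway genes had a change of at least 0.5 or were the 3 brightest receptors, exceptions being stated. The genes and lists were chosen with earlier results of these data known. Python 3.11.15 and matplotlib 3.10.9 drew the figures.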

Additional observations from a re-analysis of the deposited data

Results flagged for a closer look

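On 2 occasions an array stood apart from the other 3 of their group, by Dixon's criterion over 63 groups of 4 values, of which chance flags about 1 in 20. Ptgis read 9.15 on BG replicate 3, where the group reached 9.38, and Ptges read 10.21 on IMQ replicate 2, where it reached 10.54.

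The effects of the knockout and of an injection differed by limma for several genes. Between the knockout and LPS the difference in log2 change was -1.04 for Alox15, -0.68 for Alox5 and -1.6 for Ptgis (lower in the knockout), and 0.31 for Lta4h, 0.66 for Ptgs2 and 1.37 for Hpgd (higher). Between the knockout and BG it was -0.49 for Alox15, -0.53 for Alox5 and -0.84 for Ptgis, and 0.43 for Lta4h and 1.04 for Hpgd. The Hpgd and Lta4h differences come from groups in which the injection effect was called and the knockout effect was not. The effects have different controls, and PBS against WT was 1.04 for Hpgd (adjusted p = 0.00131). Against KO itself, Hpgd was -0.01 in BG and -0.34 in LPS (limma adjusted p = 0.988 and 0.273). Lta4h was -0.27 in BG and -0.14 in LPS against KO (adjusted p = 0.00319 and 0.118). With the B cell marker mean as a covariate, both Hpgd differences (0.56 and 0.47) and that of Lta4h from LPS (0.25, adjusted p = 0.191) were not called.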

How the results depend on the processing

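The large peritoneal macrophage mean as a covariate was added after the data were seen. It did not overlap between BG and PBS, so the fit cannot separate it from the group. With it the 6 calls after BG became 0. Alox15 turned to 0.17 (adjusted p = 0.209) and Ptgis to 0.25 (adjusted p = 0.374). Alox5 was -0.43, Lta4h -0.28, Hpgd -0.58 and Ptgs2 0.17, none called. The 6 calls for the difference of the knockout from LPS became 2, while those over all genes went from 3958 to 466. Array weights gave 1 call after PGN (Ptgis, 0.53) and 1 after IMQ (Hpgd, -0.67). Array weights also called Alox5ap after BG (-0.11, adjusted p = 0.0335). A fit of the LPS and PBS arrays alone called 2 genes after LPS and lost Alox5, Alox5ap and Ptges (adjusted p = 0.0982, 0.106 and 0.103), and one of PBS and WT lost Ptges (0.0662). A further quantile normalisation lost Alox5 after LPS (0.0901), and centring added Lta4h in PBS against WT (0.02). The causes were not tested. Leaving out 1 array gave 5 to 6 calls in KO, 0 to 5 after LPS, 0 to 1 after PGN, 0 to 1 after IMQ, 5 to 6 after BG and 2 to 4 in PBS against WT, and 6 to 7 and 5 to 6 for the differences of the knockout from LPS and BG. After LPS, Alox5 stayed called in 2 of 8 such fits, Ptges in 3, Alox5ap and Lta4h in 4 and Hpgd in 6. After BG, Hpgd stayed called in 4 of 8. Calls over all genes are not given here for fits with an array left out or with the compared groups alone. Of single-gene values, 17 under the other settings and 31 with an array left out crossed the threshold or turned a called change. The other 541 and 401 did neither, but 5 and 24 of them, not called, changed sign. Over all genes, the B cell covariate gave 1265 calls in KO, the macrophage covariate 818 in KO and 2255 after BG, and array weights 2018 after LPS, 1419 after PGN and 1699 after IMQ. Centring each array on its median gave 3400 higher and 956 lower in KO, and 391 and 1219 after LPS. Same-numbered arrays did not deviate together (84 pairs, r from -0.52 to 0.483, 26 over 0.1), so the numbers were not taken as pairs. With the replicate number as a block, 5 genes were called in KO, 5 after LPS, 6 after BG and 4 in PBS against WT, where Lta4h was added (adjusted p = 0.0452). Over all 13512 genes, that block gave 3845 calls in KO, 1438 after LPS, 5667 after BG and 4415 in PBS against WT. The number of arrays, 4 a group, limits what could be detected.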
